A study of Mus musculus with 22 samples.

Results

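The 9 genes described here, Mbp, Mog, Mag, Mobp, Cnp, Aspa, Cldn11, Ermn and Opalin, encode proteins of myelin and of the oligodendrocytes that make it. They were chosen by symbol from 19935 genes measured in the mouse hypothalamus, and each was read by 1 probe set. Expression was compared between male C57bl6 mice deficient in interleukin-6 (IL-6 KO, here KO) and their wild-type littermates (WT). All were 9 to 12 weeks old and housed singly, received 1 intraperitoneal injection, were killed 3 h later and were perfused with saline before dissection. The groups were 7 KO and 7 WT arrays after lipopolysaccharide (LPS, which immune cells sense as a sign of bacteria and answer with inflammation and fever) from Escherichia coli at 120 µg/kg, and 4 KO and 4 WT arrays after saline. The design text asks whether genes that differ between KO and WT after LPS bear on the fever that KO mice lack. The labels do not describe the altered Il6 allele or the cells that lack IL-6. They also do not tie each array to a mouse of its own, so p-values rest on the spread between arrays, which may be technical.

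Oligodendrocytes wrap axons of the central nervous system in many layers of their own membrane, the myelin sheath, which insulates the axon and speeds its signals. The sheath is rich in cholesterol and sphingolipids and is held in shape by a small set of abundant proteins, and its genes are switched on together when a precursor cell matures, under factors that include SOX10 and MYRF. In and beside the hypothalamus run myelinated tracts such as the fornix and the optic tract.

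The values are log2 differences of an array from the median of all 22 arrays for the same gene, as the authors deposited them. They hold no level of a gene, so no gene is set against another by level, and the oligodendrocyte identity of the tissue could not be checked by level. A difference of 0 means the median array. In bulk tissue fewer oligodendrocytes and less RNA per oligodendrocyte cannot be told apart, and this holds for every result here. The labels number the arrays NH1 to NH22 without saying what the number follows. KO made up 8 of the later 11 arrays (12 to 22) and 3 of the earlier 11, whereas WT made up 3 and 8, and these runs of arrays are called blocks here. The targeted gene did not check the labels. Il6 averaged 0.24 ± 0.20 in arrays labelled KO and 0.07 ± 0.14 in WT arrays after LPS (SD, n = 7 each; difference 0.17, SE 0.07, adjusted p = 0.397, limma), and the labels do not say whether its probe set lies in the altered part. LPS minus saline for Il6 was 0.36 in arrays labelled KO (SE 0.08, adjusted p = 0.0193, passed) and 0.21 in WT arrays (SE 0.08, adjusted p = 0.457), with an adjusted p of 0.999994 for the interaction. Every KO against WT direction rests on those labels. Genes of neighbouring tissue were high in some arrays, unevenly by genotype. The pituitary hormone gene Gh was high in 3 arrays, all KO and all later, at 3.96 in KO saline replicate 2, 3.76 in KO LPS replicate 3 and 2.20 in KO LPS replicate 5, and Prl was high in the same 3. The choroid plexus gene Ttr was highest in WT saline replicate 1 (4.62), WT LPS replicate 5 (2.80), WT LPS replicate 2 (2.43) and KO LPS replicate 4 (1.98). A fit without KO saline replicate 2, KO LPS replicate 3, WT saline replicate 1 and WT LPS replicate 5 changed no member's call. It still held KO LPS replicates 4 and 5 and WT LPS replicate 2. The part of neighbouring tissue in the members' values was not tested further.

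Some members recur in the results below, and the stretch of 250 bases before their start sites is shown for them. Mobp and Aspa differed in opposite directions between the later and the earlier arrays, Opalin had the most negative difference between LPS and saline in WT, and Mag and Cnp varied most alike. The sequences are from RefSeq on GRCm38.p6, given 5′ to 3′ on the strand of the gene for 1 start site per gene. Capitals mark matches to ACAAAG or ACAATG, the core letters bound by SOX factors, and to CTGGCAC or CTGGTAC, letters bound by MYRF, on either strand. No match overlapped another.
Mobp, chr9:120149492-120149741, plus strand: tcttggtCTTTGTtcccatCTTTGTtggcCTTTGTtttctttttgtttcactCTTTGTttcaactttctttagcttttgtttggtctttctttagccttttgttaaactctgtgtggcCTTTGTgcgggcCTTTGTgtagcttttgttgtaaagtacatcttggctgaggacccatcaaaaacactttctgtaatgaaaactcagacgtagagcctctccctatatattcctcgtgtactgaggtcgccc
Aspa, chr11:73324638-73324887, minus strand: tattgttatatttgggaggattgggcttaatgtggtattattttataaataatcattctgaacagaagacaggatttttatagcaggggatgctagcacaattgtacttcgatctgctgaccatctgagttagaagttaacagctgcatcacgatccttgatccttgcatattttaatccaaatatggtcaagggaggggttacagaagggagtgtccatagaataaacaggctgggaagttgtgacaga
Opalin, chr19:41077114-41077363, minus strand: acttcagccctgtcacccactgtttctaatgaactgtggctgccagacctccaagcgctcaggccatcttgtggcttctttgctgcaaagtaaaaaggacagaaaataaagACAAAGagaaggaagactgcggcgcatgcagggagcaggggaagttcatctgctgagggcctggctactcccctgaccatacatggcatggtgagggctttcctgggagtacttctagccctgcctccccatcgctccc
Mag, chr7:30914864-30915113, minus strand: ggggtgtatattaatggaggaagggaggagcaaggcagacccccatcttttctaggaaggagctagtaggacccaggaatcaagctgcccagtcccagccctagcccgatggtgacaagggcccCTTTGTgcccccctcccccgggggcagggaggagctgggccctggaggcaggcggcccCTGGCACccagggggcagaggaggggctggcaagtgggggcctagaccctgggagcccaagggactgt
Cnp, chr11:100574689-100574938, plus strand: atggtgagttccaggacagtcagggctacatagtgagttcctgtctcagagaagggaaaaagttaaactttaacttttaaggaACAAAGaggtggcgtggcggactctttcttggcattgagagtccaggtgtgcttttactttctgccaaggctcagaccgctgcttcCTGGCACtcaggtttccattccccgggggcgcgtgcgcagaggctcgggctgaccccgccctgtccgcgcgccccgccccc
Mobp held 6 SOX matches in this window, Aspa none of either motif, Opalin 1 SOX match, and Mag and Cnp 1 SOX and 1 MYRF match each. Of the 8 members looked at, 5 held a SOX match, against 25.5% of 27025 promoters of that length, and 3 held a MYRF match, against 5.86%. Mog held 1 MYRF match, Ermn 1 SOX match and Cldn11 neither. A match is a run of letters and not a binding site.

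The 9 genes varied more between arrays than most genes did. The spread within groups (pooled SD of the log2 values) was 0.12 for Mbp, which compacts the sheath from its cytoplasmic side, a value at the 69th percentile of all genes. The other 8 members lay between the 93.6th percentile, for Cnp (SD 0.17), and the 98.6th, for Aspa (SD 0.23), and the median gene had an SD of 0.10. Single arrays stood apart across the list. KO LPS replicate 4 was the highest of the 22 arrays for 8 of the 9 genes, the exception being Mobp, and its mean over the 9 was 0.37. WT LPS replicate 6 was the lowest for 5 of 9, with a mean of -0.33. KO saline replicates 1 and 2 followed at the upper end with means of 0.23 and 0.21. At the lower end WT LPS replicate 4 lay at -0.21 and KO LPS replicate 3 at -0.20, with 0 of the 9 genes above the median array in both. High and low arrays therefore occurred in the same group.

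**Figure D1:**
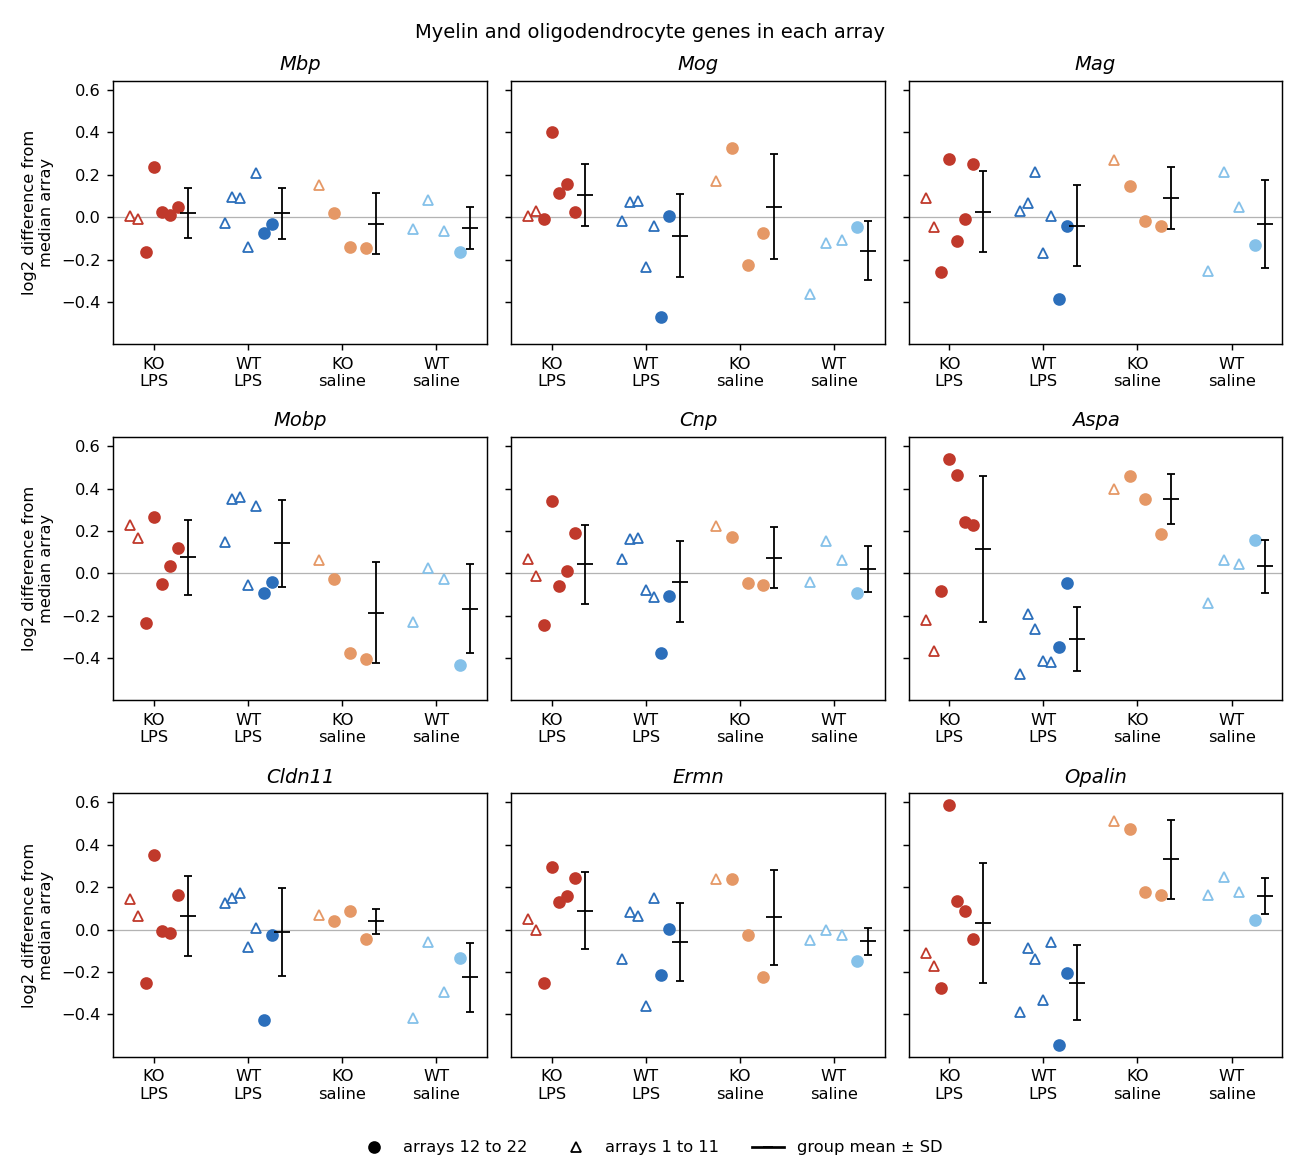
Log2 difference from the median array (y axis) of the 9 genes in each of the 22 arrays, by group (x axis). Filled circles are arrays 12 to 22, open triangles arrays 1 to 11, and bars the group mean ± SD (n = 7, 7, 4 and 4). In the Aspa panel the 7 WT LPS arrays lie between -0.47 and -0.05, and KO LPS arrays reach 0.54.

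None of the 9 genes passed the test between KO and WT after LPS at an adjusted p under 0.05 (limma, Benjamini-Hochberg over all genes), where 8 of 19935 genes (0.0401%) passed. By unadjusted p under 0.05 there were 3 members and 2267 genes. In all 9 genes the KO and WT arrays overlapped, as they did in all but 26 genes (0.13%). The differences were positive for 8 of 9 members and 9638 of all genes, with a median of 0.08 against -0.0024. With array block as a term they were positive for 9 of 9 members and 10383 of all genes, with a median of 0.145 against 0.0026. Within arrays 1 to 11 Mbp (-0.05), Mobp (-0.03), Cnp (-0.01) and Mag (-0.01) were negative, and the others lay between 0.03 and 0.06. Within arrays 12 to 22 all were positive, from 0.08 for Mbp to 0.48 for Aspa. The members varied together, so their signs are not separate observations.

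Aspa encodes aspartoacylase, which splits N-acetylaspartate in oligodendrocytes and frees acetate for lipid synthesis. It ranged from -0.36 through a median of 0.23 to 0.54 in KO arrays after LPS, and from -0.47 through -0.35 to -0.05 in WT arrays after LPS. The group means were 0.12 ± 0.34 in KO and -0.31 ± 0.15 in WT (SD, n = 7 each). The 2 KO arrays of the earlier block lay at -0.22 and -0.36, and the 5 of the later block between -0.08 and 0.54. The difference of 0.42 (SE 0.11, 95% CI 0.20 to 0.65, 1.34-fold) did not pass the test (adjusted p = 0.254, limma). It was 0.48 within the later arrays (5 KO and 2 WT) and 0.06 within the earlier ones (2 KO and 5 WT). With array block as a term it was 0.31 (SE 0.10, adjusted p = 0.829), in a fit that called 2 genes (0.01%). When arrays were weighted by their quality, Aspa passed (0.52, adjusted p = 0.0159), in a fit that called 614 genes (3.08%).

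Opalin, a membrane protein of the paranodal loops of myelin, ranged from -0.27 through -0.04 to 0.59 in KO arrays after LPS, and from -0.54 through -0.21 to -0.06 in WT arrays after LPS. The highest KO value was that of replicate 4. The difference was 0.28 (SE 0.10, 95% CI 0.07 to 0.49, adjusted p = 0.344, limma), 0.47 within the later arrays and 0.06 within the earlier ones. Mog, which sits on the outermost face of the sheath, ranged from -0.01 through 0.03 to 0.40 in KO and from -0.47 through -0.02 to 0.07 in WT. Its difference was 0.19 (SE 0.09, adjusted p = 0.426) and ranged from 0.05 to 0.37 over 35 alternative fits. The remaining members lay closer together. Mbp averaged 0.02 in KO and 0.02 in WT, a difference of 0.004 with an interval from -0.12 to 0.13. Mobp, a small basic protein of the cytoplasmic side, had the only negative difference (-0.07, SE 0.10), which turned to 0.05 with array block as a term. Mag, the adhesion molecule that faces the axon, differed by 0.07 (SE 0.09). Cnp, a phosphodiesterase of the uncompacted sheath, differed by 0.08 (SE 0.08). Cldn11, the claudin that seals the layers with tight junctions, differed by 0.08 (SE 0.09), and Ermn, a cytoskeletal protein of oligodendrocytes, by 0.15 (SE 0.09).

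After saline 0 of the 9 genes passed the test between KO and WT (limma), where 1 of 19935 genes passed (0.00502%, the same share with array block as a term). By unadjusted p under 0.05 there were 2 members and 1030 genes. Differences were positive for 8 of 9 members and 9739 of all genes, with a median of 0.12 against -0.0022. The block as a term gave 9 of 9 members and 10642 of all genes positive, with a median of 0.19 against 0.0052. Aspa lay at 0.40, 0.46, 0.35 and 0.19 in the 4 KO arrays, and at -0.14, 0.07, 0.05 and 0.16 in the 4 WT arrays. The KO and WT values of Aspa did not overlap, with a difference of 0.32 (SE 0.15, adjusted p = 0.840). Cldn11 lay at 0.07, 0.04, 0.09 and -0.05 in KO, and at -0.42, -0.06, -0.29 and -0.13 in WT, again without overlap (difference 0.26, SE 0.11, adjusted p = 0.840). Such separation of 4 arrays from 4 was found for 593 genes (2.97%). Opalin lay at 0.51, 0.47, 0.18 and 0.16 in KO and at 0.16, 0.25, 0.18 and 0.04 in WT, which overlapped. The comparisons after LPS and after saline share no array but share the blocks, since 3 of 4 KO saline arrays and 1 of 4 WT saline arrays were numbered 12 to 22. With array block as a term the difference of Aspa after saline was 0.19 and that of Cldn11 0.32.

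LPS against saline gave members on both sides of 0 in WT. These WT LPS arrays are the ones set against KO above. Of the 9 genes, 0 passed the test (limma) against 1.80% of all genes (359), of which 1.42% were higher and 0.376% lower. By unadjusted p under 0.05 there were 4 members and 1279 genes. Opalin lay between -0.54 and -0.06 (median -0.21) in the 7 WT LPS arrays, and at 0.16, 0.25, 0.18 and 0.04 in the 4 WT saline arrays. The treatments did not overlap for Opalin, as for 466 of all genes (2.34%), and the other 8 members overlapped. Its difference was -0.41 (SE 0.12, 95% CI -0.66 to -0.16, 0.753-fold, adjusted p = 0.104). Aspa averaged -0.31 ± 0.15 in WT LPS arrays (SD, n = 7) and 0.03 ± 0.12 in WT saline arrays (SD, n = 4), a difference of -0.34 (SE 0.13, adjusted p = 0.419).

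Mobp differed the other way. It ranged from -0.09 through 0.15 to 0.36 in WT LPS arrays and lay at -0.23, 0.02, -0.02 and -0.43 in WT saline arrays (difference 0.31, SE 0.12, adjusted p = 0.407). Cldn11 averaged -0.01 ± 0.21 in WT LPS arrays and -0.23 ± 0.16 in WT saline arrays (difference 0.21, SE 0.10, adjusted p = 0.760). The Cldn11 difference was 0.33 within arrays 1 to 11 and -0.10 within arrays 12 to 22, where WT saline was 1 array. Mbp (0.07), Mog (0.07), Mag (-0.01), Cnp (-0.06) and Ermn (-0.0048) did not pass, with SEs from 0.07 to 0.11 and an adjusted p of 0.9997 each. Between the earlier and the later arrays the sign changed for Mog (0.17 and -0.19), Mag (0.03 and -0.08) and Ermn (-0.02 and 0.04).

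The calls for Opalin and Aspa depended on which arrays set the spread. Fitted on the WT arrays alone, Opalin (-0.41, adjusted p = 0.0156) and Aspa (-0.34, adjusted p = 0.0406) passed, in a fit that called 1.74% of genes. Within arrays 1 to 11 (5 LPS and 3 saline) both passed as well, Opalin with -0.40 (adjusted p = 0.0113) and Aspa with -0.34 (adjusted p = 0.0313), against 1.76% of genes. Within arrays 12 to 22, where WT had 2 LPS arrays and 1 saline array, Opalin (-0.42) and Aspa (-0.36) kept their direction and did not pass, against 0.226% of genes. Without KO LPS replicate 4, which belongs to neither group but enters the shared spread, Opalin passed (adjusted p = 0.0138; 1.84% of genes) and Aspa did not. With array block as a term 0 members passed, against 2.17% of genes.

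In KO, Opalin and Mobp led the LPS comparison, with 0 of 9 called (limma) against 1.34% of all genes (267), 1.08% higher and 0.256% lower. By unadjusted p under 0.05 there were 2 members and 1164 genes. Opalin ranged from -0.27 through -0.04 to 0.59 in the 7 KO LPS arrays and lay at 0.51, 0.47, 0.18 and 0.16 in the 4 KO saline arrays. Its difference was -0.30 (SE 0.12, adjusted p = 0.561). Of the LPS arrays, only replicate 4, at 0.59, lay inside or above the saline values. Without that array the difference was -0.39 (adjusted p = 0.0313), in a fit that called 1.46% of genes. Mobp ranged from -0.24 through 0.12 to 0.27 after LPS and lay at 0.06, -0.03, -0.37 and -0.40 after saline (difference 0.26, SE 0.12, adjusted p = 0.737). Aspa ranged from -0.36 through 0.23 to 0.54 after LPS and lay between 0.19 and 0.46 after saline (difference -0.23, SE 0.13, adjusted p = 0.985). The KO arrays overlapped between treatments for all 9 members, and 331 genes (1.66%) did not overlap.

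Within arrays 1 to 11 KO had 2 LPS arrays and 1 saline array, replicate 1, so the differences there rest on the values of that array (0.40 for Aspa and 0.51 for Opalin). They were -0.69 for Aspa and -0.65 for Opalin. Both passed (0.727% of genes did) only on the assumption that this lone array varies like the other groups. Within arrays 12 to 22 (5 LPS and 3 saline) Aspa differed by -0.05 and Opalin by -0.17, and neither passed, against 0.833% of genes. Fits on the KO arrays alone and with array block as a term called 0 members, against 1.04% and 1.59% of genes. In the interaction (the LPS effect in KO minus that in WT) 0 of 9 members passed (limma), as did 0 of 19935 genes (0%, also with array block as a term). At an unadjusted p under 0.05 it held 0 members and 327 genes. The widest member difference was that of Cldn11, at -0.19 (SE 0.14, adjusted p = 0.999994).

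**Figure D2:**
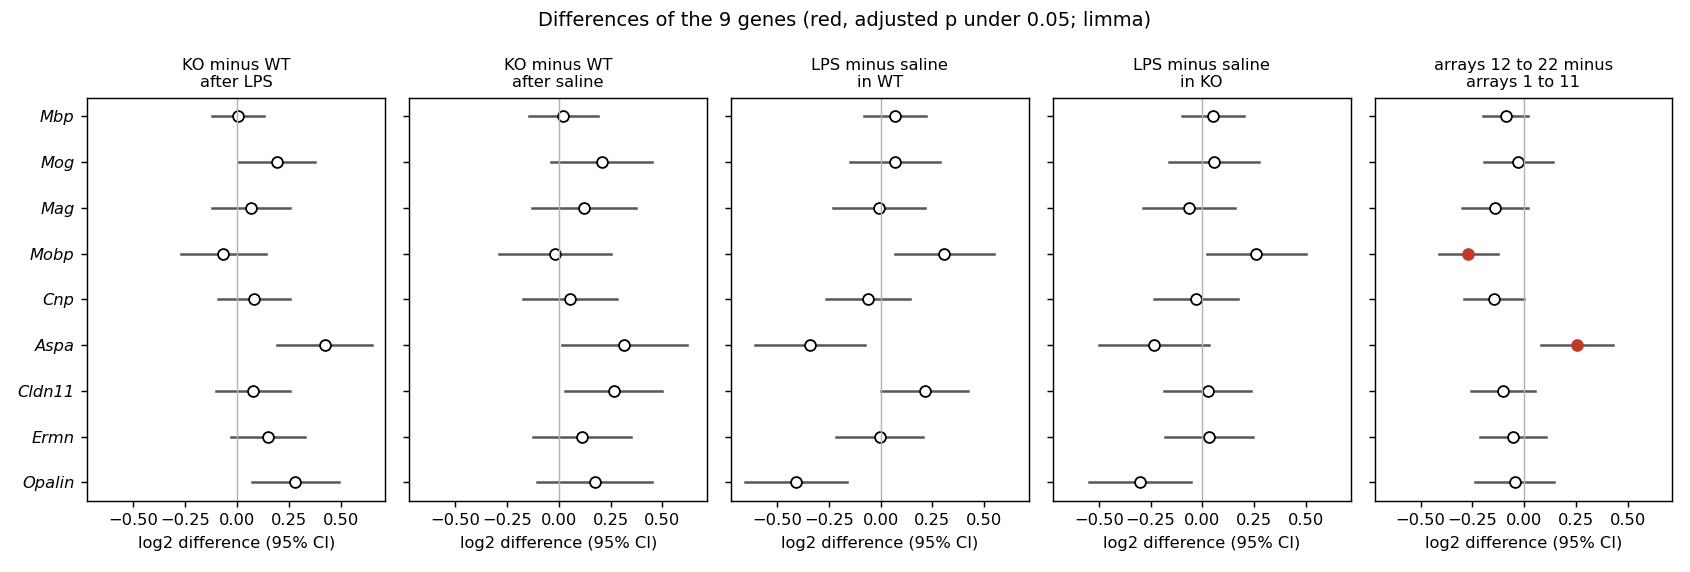
Log2 difference (x axis) of the 9 genes (y axis) in 5 comparisons, with 95% confidence intervals from limma. Red points passed at an adjusted p under 0.05: Mobp (-0.27) and Aspa (0.26) between arrays 12 to 22 and arrays 1 to 11.

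In the unweighted fit of the 4 group means to all 22 arrays, with or without array block, members passed by array number only. When arrays were weighted by quality, Aspa also passed between KO and WT after LPS, as given above. In a fit with the 4 groups, 1 of the 9 genes was lower and 1 higher in arrays 12 to 22 than in arrays 1 to 11 (limma), where 21.5% of all genes passed (4286), 10.6% lower and 10.9% higher. Members thus passed at about the share of all genes. Mobp ranged from -0.43 to 0.27 in the later arrays (mean -0.11 ± 0.22, SD, n = 11), above the median array in 3 of 11. In the earlier arrays it ranged from -0.23 to 0.36 (mean 0.12 ± 0.19, SD, n = 11), above the median in 8 of 11. Mobp was lower in the later arrays by a difference of -0.27 (SE 0.07, adjusted p = 0.00599), and passed in all 30 alternative fits.

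Aspa went the opposite way. It averaged 0.20 ± 0.27 in arrays 12 to 22 and -0.18 ± 0.26 in arrays 1 to 11 (SD, n = 11 each), above the median array in 8 and in 3 of 11. The difference was 0.26 (SE 0.08, adjusted p = 0.0308). The call was lost without KO LPS replicate 1 (0.22, adjusted p = 0.104), KO LPS replicate 2 (0.19, adjusted p = 0.138) or WT LPS replicate 7 (0.24, adjusted p = 0.0764). The other 7 members had negative differences from -0.15 for Cnp (SE 0.07, adjusted p = 0.148) to -0.03 for Mog, and did not pass. Cnp passed without KO LPS replicate 4 (-0.17, adjusted p = 0.0456). The median of the members was -0.09, against -0.0096 over all genes.

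Aspa minus Mobp, taken within each array, set the opposed genes against each other. The median of this difference was 0.27 in the later arrays and -0.45 in the earlier ones. By group it was 0.15 in KO LPS, -0.54 in WT LPS, 0.54 in KO saline and 0.08 in WT saline arrays. Genotype and array number cannot be told apart in these medians. The measure was chosen after the values were seen and is given without a test.

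**Figure D3:**
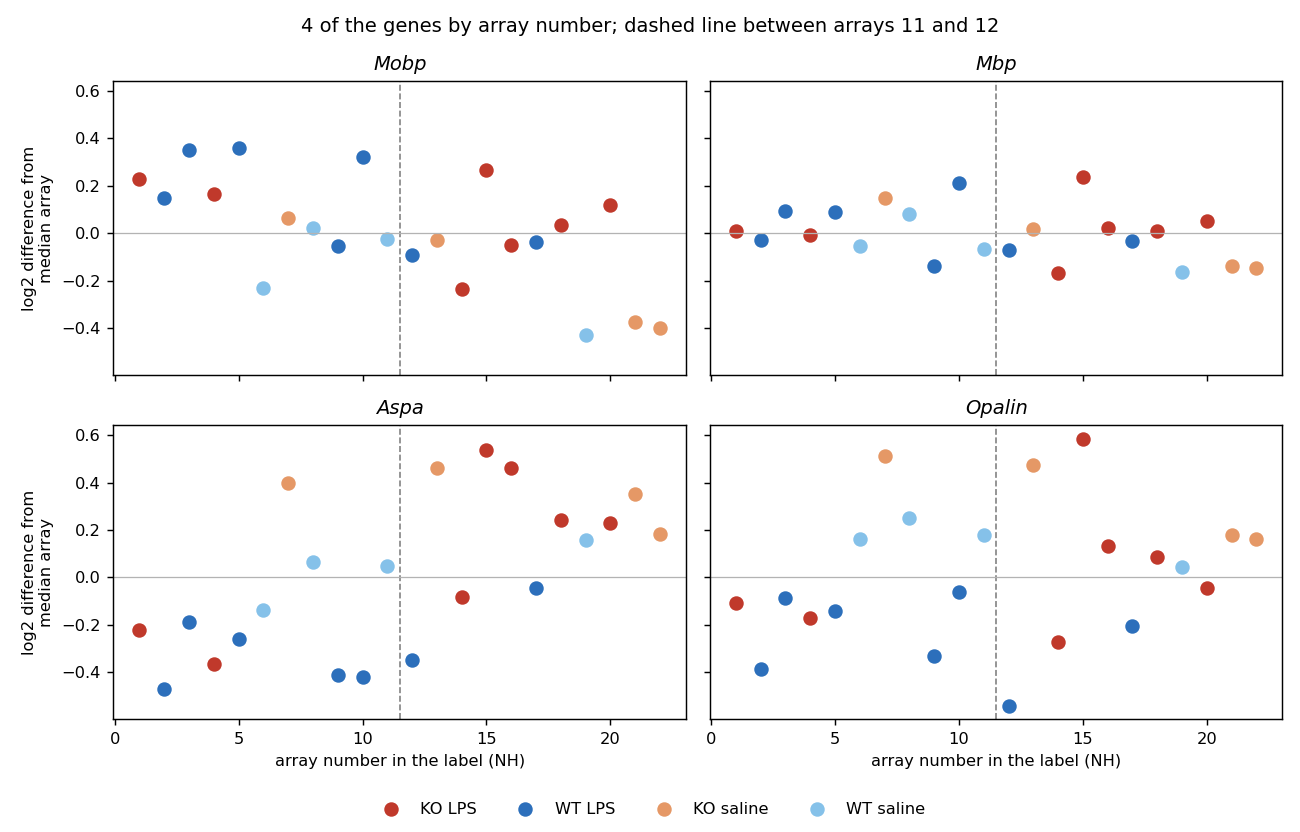
Log2 difference from the median array (y axis) of Mobp, Mbp, Aspa and Opalin against the array number in the label (x axis), coloured by group, with a dashed line between arrays 11 and 12. Mobp is above 0 in 3 of 11 arrays right of the line and 8 of 11 left of it, and Aspa in 8 and 3.

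Across the 22 arrays the members varied together. Of 36 pairs, 27 had a Pearson r above 0.5, with a median of 0.58 and a range from -0.30 to 0.92. These are descriptions, since the arrays share groups, blocks and normalization. Mag and Cnp were the most alike (r = 0.92, Spearman's rho 0.89), with r = 0.98 within arrays 12 to 22 and 0.83 within arrays 1 to 11. Mbp went with Mobp and with Ermn (r = 0.81 each), and Aspa with Opalin (r = 0.82, 0.94 within each block). Mobp and Aspa had the lowest correlation (r = -0.30, rho -0.25), at 0.27 within the later and -0.31 within the earlier arrays.

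After the means of the 4 groups and of the array blocks were removed, all 36 pairs had an r above 0.5, with a median of 0.73 and a range from 0.53 to 0.91. Mobp and Aspa then correlated with 0.67 and Mobp and Opalin with 0.77, against -0.06 before. Within groups and blocks the members thus varied in the same direction over the 22 arrays. This r was not computed without KO LPS replicate 4 or WT LPS replicate 6, which stood apart for many members. In the deposited values within arrays 1 to 11, Cldn11 and Opalin had r = -0.36, Mobp and Opalin -0.35 and Aspa and Cldn11 -0.22. Apart from Mobp and Aspa, the other pairs were positive there. In the deposited values, Ermn (r = 0.86), Cnp (0.86) and Mag (0.85) followed the mean of the other 8 members most closely. Mobp (0.35) and Aspa (0.47) followed it least. In the same order, these were 0.84, 0.75, 0.80, 0.36 and 0.37 without the 2 arrays farthest from the median. After removal of group and block means they were 0.84, 0.89, 0.87, 0.88 and 0.82, and Cldn11 was lowest (0.74).

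**Figure D4:**
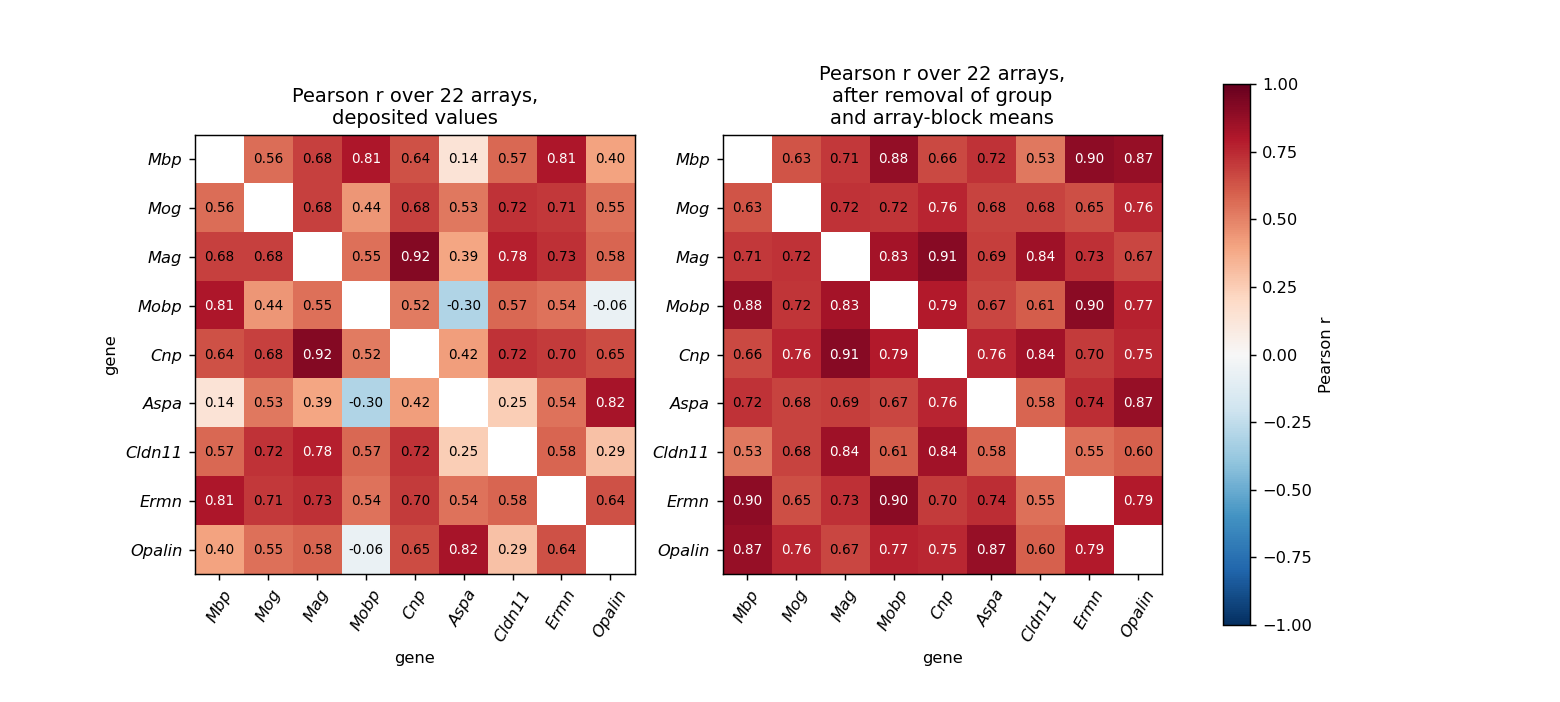
Pearson correlation of each pair of the 9 genes over 22 arrays, for the deposited values (left) and after removal of group and block means (right). Colour runs from -1 (blue) to 1 (red). The pair Mobp and Aspa is at -0.30 on the left and 0.67 on the right.

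The genes outside the list most like the mean of the 9 over the 22 arrays were Trf, which encodes the iron carrier transferrin, made by oligodendrocytes (r = 0.91), Cmtm5 (0.88), the phosphodiesterase gene Pde8a (0.87), Gatm, the first enzyme of creatine synthesis (0.85), and Efhd1 (0.84). Nudt4 (0.82), Tmbim1, Sprn, Dusp15 and Rangrf (0.81 each) followed. Trf kept r = 0.92 within the later and 0.90 within the earlier arrays, and 0.87 without the 2 arrays farthest from the median. Of the 50 genes most like the mean, 13 belonged to the oligodendrocyte lists below, with the cholesterol list not counted. The lists counted hold 13 myelin membrane, 6 sphingolipid, 20 other mature, 11 transcription factor and 11 precursor genes of the 19935 measured. Over all genes outside the 9, the median r was -0.05. At the other end were N4bp2 (-0.74), the dynein gene Dnah11 and the cilium gene Cfap46 (-0.70 each), Nek10 and the potassium channel gene Kcna5 (-0.69 each).

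Other genes of the lineage were given as lists with the members' mean as the yardstick. The mean of 13 other measured myelin membrane and junction genes correlated with it at r = 0.90 over the 22 arrays, that of 20 other mature oligodendrocyte genes at 0.91, and that of 6 genes of myelin sphingolipids and fatty acids at 0.82. For 11 oligodendrocyte transcription factors r was 0.45, for 7 cholesterol synthesis genes 0.27 and for 11 precursor and newly formed oligodendrocyte genes 0.18. Within arrays 12 to 22 r was 0.61, 0.34 and 0.32 for these lists in the same order. Within arrays 1 to 11 it was 0.82, 0.35 and 0.10. KO LPS replicate 4 was the highest array for each of the first 3 lists and ranked 13 for transcription factors and 5 for precursor genes.

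By Pearson r over the 22 arrays, marker lists of other cell types and tissue all followed the members less closely than those first 3 lists. Some had a higher r there than the transcription factor, cholesterol or precursor lists. The mean of 5 thalamus markers had r = 0.57, of 12 neuron and axon markers 0.51, of 10 astrocyte markers 0.39, of 9 microglia markers 0.36, of 9 endothelial markers 0.30, and of 5 Schwann cell myelin genes 0.15. It was 0.02 for 7 pituitary markers, -0.06 for 9 choroid plexus markers and -0.31 for 15 hypothalamus markers. The order depended on the block and the measure. Within each block the transcription factors had a higher r (0.61 later, 0.82 earlier) than every one of these marker lists. Thalamus markers had 0.50 in the later and 0.744 in the earlier arrays, and neuron and axon markers 0.40 and 0.763. In the earlier arrays both lay above the sphingolipid list (0.736). By Spearman's rho neuron and axon markers (0.71) also lay above that list (0.66). The thalamus list ranged over arrays from -0.61 to 0.20 in KO LPS, -0.56 to 0.25 in WT LPS, -0.43 to 0.10 in KO saline and -0.57 to 0.22 in WT saline. In KO LPS replicate 4 it lay at -0.02, rank 12 of 22, and the choroid plexus list at 0.26, rank 4. The part of dissected tissue in the members' values was not tested.

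No gene of the oligodendrocyte lists passed the test between KO and WT after LPS or after saline (limma). At an unadjusted p under 0.05 after LPS there were 6 of 13 other myelin membrane genes, 3 of 6 sphingolipid genes and 4 of 20 other mature genes, against 2267 of all 19935 genes. There were also 2 of 11 transcription factors, 2 of 7 cholesterol genes and 1 of 11 precursor genes. With array block as a term these counts were 0 of 13, 2 of 6, 3 of 20, 0 of 11, 1 of 7 and 1 of 11, against 1030 of all genes. The median difference after LPS was 0.17 for other myelin membrane genes, 0.11 for sphingolipid genes and 0.06 for other mature genes. With array block as a term it was 0.07, 0.13 and 0.10, so the order of these lists depended on the block. Pllp, which encodes the sheath protein plasmolipin, differed by 0.21 (SE 0.08, adjusted p = 0.361) and the tetraspanin gene Cd9 by 0.18 (SE 0.07, adjusted p = 0.361). Elovl7, a fatty acid elongase, differed by 0.26 (SE 0.08, adjusted p = 0.330) and Cers2, the ceramide synthase of very long chains, by 0.15 (SE 0.06, adjusted p = 0.407). After saline Pllp differed by 0.26 (SE 0.11, adjusted p = 0.840) and the tetraspanin gene Tspan2 by 0.31 (SE 0.11, adjusted p = 0.840). Endothelial markers lay higher in KO than in WT after LPS as well, with a median of 0.23 and 0 of 9 called, and their part in the members' values was not tested.

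A few genes of the lineage outside the 9 were called lower after LPS. In WT 2 of 11 transcription factors were, where 0.376% of all genes were called lower and 1.42% higher. Nkx6-2, a homeobox factor of maturing oligodendrocytes, averaged -0.10 ± 0.12 in WT LPS arrays (SD, n = 7) and 0.29 ± 0.18 in WT saline arrays (SD, n = 4), and fell by 0.40 (SE 0.08, adjusted p = 0.00762, limma). Nkx2-2, a homeobox factor of the precursor stage, averaged -0.07 ± 0.12 in WT LPS arrays (SD, n = 7) and 0.23 ± 0.13 in WT saline arrays (SD, n = 4), and fell by 0.30 (SE 0.07, adjusted p = 0.0195). Of the 6 sphingolipid and fatty acid genes, Elovl7 fell by 0.39 (SE 0.10, adjusted p = 0.0272), with values from -0.49 to -0.07 in WT LPS arrays and from 0.06 to 0.20 in WT saline arrays. Of the 11 precursor genes, the proteoglycan gene Vcan rose by 0.22 (SE 0.06, adjusted p = 0.0463, limma). This call was lost in 18 of 35 alternative fits, 14 of which left out a single array. Within arrays 12 to 22 WT saline was 1 array. The WT differences there were -0.16 for Nkx6-2, -0.14 for Nkx2-2, -0.41 for Elovl7 and 0.12 for Vcan.

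In KO, Nkx6-2 averaged -0.07 ± 0.15 in LPS arrays (SD, n = 7) and 0.34 ± 0.15 in saline arrays (SD, n = 4), and fell by 0.41 (SE 0.08, adjusted p = 0.00759, limma). Elovl7 averaged -0.01 ± 0.23 in KO LPS arrays and 0.41 ± 0.11 in KO saline arrays, and fell by 0.42 (SE 0.10, adjusted p = 0.0193). Nkx2-2 (-0.18, SE 0.07, adjusted p = 0.546) and Vcan (0.19, SE 0.06, adjusted p = 0.135) did not pass in KO, and the interaction had an adjusted p of 0.999994 for all 4. Of 35 alternative fits, the WT calls were lost in 2 for Nkx6-2, 5 for Nkx2-2 and 9 for Elovl7, and the KO calls in 3 for Nkx6-2 and 5 for Elovl7. Without 4 arrays that an earlier look found high in choroid plexus or pituitary genes (KO saline replicate 2, KO LPS replicate 3, WT saline replicate 1 and WT LPS replicate 5) all 4 WT calls were lost, at -0.36 for Nkx6-2 (adjusted p = 0.124), -0.28 for Nkx2-2 (0.165), -0.38 for Elovl7 (0.164) and 0.23 for Vcan (0.126). In KO that fit lost Elovl7 (-0.35, adjusted p = 0.262) and kept Nkx6-2 (-0.43, adjusted p = 0.0424). The fit still held KO LPS replicate 5, high in Gh, and KO LPS replicate 4 and WT LPS replicate 2, high in Ttr. Single arrays ended some of these calls too. Nkx2-2 in WT was lost without WT saline replicate 1, 2 or 3 (-0.28 to -0.27, adjusted p up to 0.113). Elovl7 in WT was lost without any of the 4 WT saline arrays or without WT LPS replicate 3, 4 or 5 (-0.41 to -0.36, adjusted p up to 0.115). In KO, Nkx6-2 was lost without saline replicate 1 (-0.34, adjusted p = 0.0714) and Elovl7 without saline replicate 2 (-0.37, adjusted p = 0.132). Endothelial markers fell in the same arrays, 8 of 9 in WT (median -0.56) and 6 of 9 in KO (median -0.40). Over all genes 0.376% were called lower in WT and 0.256% in KO. The part of endothelial markers in these results was not tested. None of the 20 other mature oligodendrocyte genes, 13 myelin membrane genes, 7 cholesterol synthesis genes or 5 Schwann cell genes passed in either genotype. Their medians lay between -0.09 and 0.004, against -0.01 over all genes in both genotypes.

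By array number the counts called in each list are read against the 10.6% of all genes that were lower and the 10.9% that were higher. Of the transcription factors 5 of 11 were lower in arrays 12 to 22, with a list median of -0.15. Myrf, the regulator that switches on myelin genes, averaged -0.13 ± 0.10 in the later arrays and 0.14 ± 0.13 in the earlier ones (SD, n = 11 each; difference -0.28, SE 0.05, adjusted p = 0.000621, limma). Sox10 (-0.21, SE 0.05), Sox8 (-0.19, SE 0.04) and Nkx2-2 (-0.15, SE 0.04) were also lower, the last not without WT saline replicate 4 (adjusted p = 0.0571). The fifth, Olig2 (-0.14), was not called in 14 of 30 alternative fits, 9 of which left out a single array (adjusted p up to 0.0999). Of the 20 other mature genes 7 were lower, among them the plexin gene Plxnb3 (-0.20), Ndrg1 (-0.22), the kinase gene Cdk18 (-0.22) and the ephrin gene Efnb3 (-0.18), and 1 was higher, the alarmin gene Il33 (0.24). The 7 include Ppp1r14a, not called in 18 of 30 alternative fits, and Tmem88b, not called in 6, of which 14 and 4 left out a single array. They also include Adamts4, lost without KO saline replicate 1 (adjusted p = 0.0507). Of the myelin membrane genes 2 of 13 were higher, Omg (0.33, SE 0.06) and Cd9 (0.20), and 2 lower, Tppp (-0.18) and Sirt2 (-0.15), each near the share of all genes. Fa2h, which hydroxylates myelin sphingolipids, was lower (-0.17), but not without KO saline replicate 1, WT LPS replicate 7 or WT saline replicate 4 (-0.15, adjusted p up to 0.0723). Of 11 precursor genes 1 was lower, again near the share of all genes, the proteoglycan gene Cspg4 (-0.21). Of 7 cholesterol synthesis genes 3 were higher, Hmgcs1 (0.20), Cyp51 (0.19) and Idi1 (0.15). Idi1 was lost without any 1 of 5 arrays, KO LPS replicates 1 and 2, WT LPS replicates 6 and 7 and WT saline replicate 4 (0.14 to 0.16, adjusted p up to 0.0755). Schwann cell genes had 0 of 5 called, with 1 at an unadjusted p under 0.05. Mobp went in the direction of these transcription factors, as did 2119 called genes in all, and Aspa in that of Omg, as did 2167. Tppp and Sirt2, of the same list as Omg, went the other way. Genes called by array number also occurred in lists outside the lineage. Of 10 astrocyte markers 1 was higher (Aqp4 0.23) and 1 lower (Fgfr3 -0.29). Of 12 neuron markers 2 were lower (Tubb3 -0.36 and Rbfox3 -0.24). Of 15 hypothalamus markers 2 were higher and 1 lower, and of 9 endothelial markers 1 was higher. What the array number stands for was not given in the labels.

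**Figure D5:**
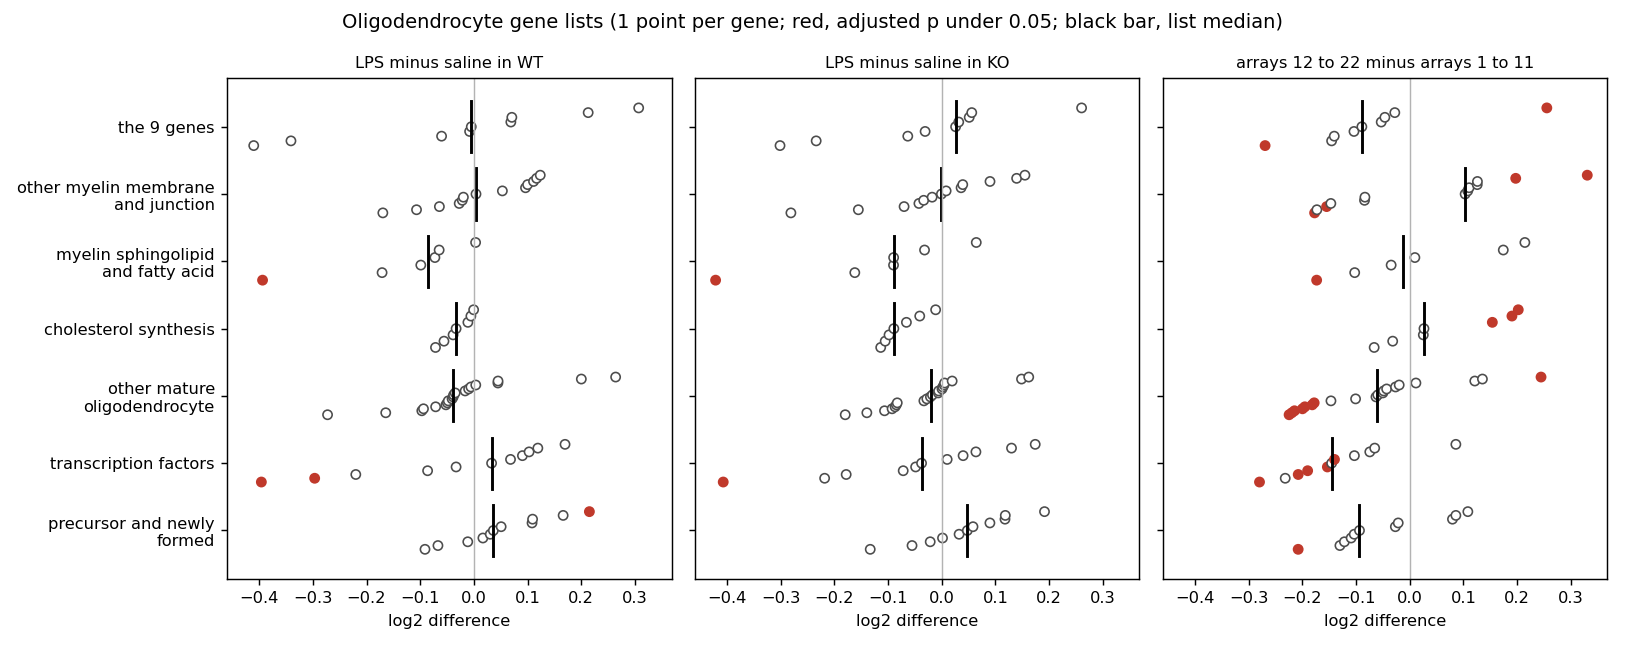
Log2 difference (x axis) of each gene of the 9 and of 6 other oligodendrocyte gene lists (y axis), for LPS minus saline in WT, LPS minus saline in KO, and arrays 12 to 22 minus arrays 1 to 11. Red points passed at an adjusted p under 0.05 (limma), and black bars are list medians. In the right panel the transcription factors have 5 called lower and a median of -0.15.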

How the data were processed

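RNA of the hypothalamus was measured on 22 Affymetrix arrays. The table that the authors deposited holds log2 values of 28815 probe sets. Per the submitters' processing notes they were made with RMA (no version named). The genome build was not given in the sources used here. No probe set had a median over the arrays farther than 7.02e-07 from 0, so the authors had centred each probe set. No source names the logarithm's base, and 2 was assumed, as RMA gives. Of 21780 probe sets with 1 symbol, 21689 matched a RefSeq table (GRCm38.p6) by gene ID. Probe sets of a gene were averaged, probe sets with several symbols (1605) or none (5430) were left out, and 19935 genes were tested. Arrays have no read depth, and their number limits the precision.

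Limma 3.58.1 in R 4.3.3 fitted 1 mean per group over all 22 arrays, with empirical Bayes, two-sided tests and Benjamini-Hochberg adjustment over all genes, called at an adjusted p under 0.05. Array block (arrays 12 to 22 or arrays 1 to 11) was a further term where stated. The fits were tested on simulated data. Errors are SE for differences and SD for group means. Groups came from the labels, replicate numbers follow deposition order, and arrays were not paired. Alternatives covered array block, fits within blocks or on the compared arrays, scaling, array weights and leaving out arrays.

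The members and lists were chosen with earlier results of these data known. A written rule set which genes to name. These were the 9 members and up to 4 called genes per list and comparison, by smallest p. Where none was called, up to 2 with the smallest p were taken. The rule also took the 10 genes most and the 5 least like the members' mean, and Ttr, Gh, Prl and Il6. Many uncalled genes that the rule took, and most genes of lists outside the lineage, called or not, were left out for length. Olig2, Ppp1r14a, Tmem88b and Adamts4 were named beyond the rule because alternative fits lost their calls. Il33 was named, after its values were seen, as the 1 gene behind a count. Listed genes without a value here were not analysed. No sequence is shown for Mbp.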

Additional observations from a re-analysis of the deposited data

Results flagged for a closer look

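Mog in KO LPS replicate 4 lay at 0.40, far above the other 6 arrays of its group, with a gap of 0.60 of the group's whole range. Cldn11 in WT LPS replicate 6 lay at -0.43, far below the other 6 arrays of its group, with a gap of 0.57 of the range. Each exceeded Dixon's critical value. Of 40 groups of values tested in this way, chance alone would place about 1 in 20 past it, and 2 were. KO LPS replicate 4 was the highest array for 8 of the 9 genes, and WT LPS replicate 6 the lowest for 5.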

How the results depend on the processing

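No paired analysis was possible because the labels carry no replicate numbers. The number of the 9 genes called in KO against WT after LPS was 1 with array weights and 0 otherwise. For LPS against saline in WT it was 2 within arrays 1 to 11, 2 on the WT arrays alone, and 2 without KO LPS replicate 4 with array block as a term, an alternative chosen after seeing the data (Mobp 0.32, adjusted p = 0.0412, and Opalin -0.41, adjusted p = 0.00993). For LPS against saline in KO it was 2 within arrays 1 to 11, where saline was 1 array, and 1 under that added alternative (Opalin -0.40, adjusted p = 0.0182). Leaving out 1 array at a time gave 0 to 1 called members in each LPS comparison, 1 to 3 by array number, and 0 to 0 in both genotype comparisons and the interaction. The rise to 1 came without KO LPS replicate 4. The count by array number was 1 without KO LPS replicate 1, KO LPS replicate 2 or WT LPS replicate 7. Of 1836 member differences under alternatives, 13 gained and 3 lost a call, and 107 changed sign without a call in either fit. None that was called changed sign. Of the 10 genes most like the members' mean, 4 remained after group and block means were removed, and 8 by Spearman correlation. Of 870 differences of other named genes, 90 lost their call. The causes were not tested. The values hold no levels, so a filter on dim genes could not be run.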
